A study of Mus musculus with 2 samples.

Results

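Among 5260 single cells sorted from the hypothalamus of newborn mice, 174 passed a limit on the summed messenger RNA of Emx2 and Fezf2. Both are transcription factor genes, and a cell could pass with RNA of only 1 of them. These 174 Emx2/Fezf2 cells are described here. A cell was taken when it had at least 300 detected genes, at least 2 unique molecular identifiers (UMIs, each marking 1 captured RNA molecule) of Emx2 and Fezf2 together, and fewer than 2 UMIs of Nts, the neurotensin gene. The choice therefore used the measured Emx2, Fezf2 and Nts values of these same cells, and every comparison of the chosen cells with other cells below is a description, with no test. The working name was posterior hypothalamic neurons, but the tables hold no position, so the cells are called by the genes that chose them.

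Cells were profiled by Drop-seq, a droplet method that tags the 3′ ends of the transcripts of a cell with a barcode shared by that cell. The hypothalami came from CD-1 pups aged postnatal day 1 to 4. Sorted cells were positive for tdTomato, a red fluorescent protein of the Ai14 reporter that Sim1-Cre switches on for good, so the sort keeps cells whose precursors expressed Cre as well as cells that still do, and both genotypes carried the driver and the reporter. The control library had the genotype Sim1-Cre;tdTomato+/- and the heterozygous library Sim1-Cre;tdTomato+/-;Sim1+/-, and 6 pups were pooled into the only library of each genotype by the sample labels, where the protocol text gives 5 to 6. The design thus had no replicates, p-values are not given, and a genotype difference is one between 2 libraries. Intervals are exact 95% intervals that cover counting error only and are too narrow, since UMIs of 1 cell are not independent.

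Emx2 is a homeodomain transcription factor and Fezf2 a zinc finger transcription factor, and both are best known for patterning the forebrain and specifying neurons of the cerebral cortex. Sim1 is a bHLH-PAS transcription factor needed for neurons of the paraventricular nucleus, the hypothalamic centre that makes oxytocin, vasopressin, corticotropin-releasing hormone and thyrotropin-releasing hormone. Sim1-lineage cells also populate the mammillary region at the posterior end of the hypothalamus, where Foxb1, a forkhead factor, is the standard marker.

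The control library held 94 Emx2/Fezf2 cells among 2806 cells, a share of 3.35% (interval 2.72 to 4.08). The heterozygous library held 80 among 2454 cells, a share of 3.26% (interval 2.59 to 4.04). The ratio of the shares, heterozygous over control, was 0.973 with an interval from 0.713 to 1.33, so no difference was detectable at this depth. Depth bears on this share, because a rule on UMIs takes deep cells more often. The Emx2/Fezf2 cells had a median of 2529 UMIs in the control and 3183 in the heterozygous library, against 1758 and 1544 in all other cells. When every cell was thinned to 857 UMIs, the shares were 1.40% and 1.14%.

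The libraries held 6525080 UMIs in 2807 barcodes (control) and 5397693 UMIs in 2476 barcodes (heterozygous), and shared 0 barcodes. Of these, 1 and 22 barcodes had fewer than 300 genes and were left out. No doublet caller was run.

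The promoters shown here belong to genes that ran higher in Emx2/Fezf2 cells than in all other cells. Emx2 and Uncx are homeodomain factors, and many homeodomain proteins bind DNA with a TAATTA core, which is its own reverse complement. The 250 bases before the RefSeq start (build GRCm38.p6) of 21 genes higher in these cells were searched for it, out of 26 sought. Of the 21 genes, 2 held the motif, against 5.65% of all 27025 genes in the table. Both are printed 5′ to 3′ on the plus strand with the motif in capitals. The upstream stretch of Syt6, a synaptotagmin of the vesicle release family, lies at chr3:103574995-103575244, and its motif starts 224 bases before the gene's start. The stretch of Uncx, a paired-type homeodomain factor, lies at chr5:139543648-139543897, and its motifs start 133 and 30 bases before the start.
Syt6: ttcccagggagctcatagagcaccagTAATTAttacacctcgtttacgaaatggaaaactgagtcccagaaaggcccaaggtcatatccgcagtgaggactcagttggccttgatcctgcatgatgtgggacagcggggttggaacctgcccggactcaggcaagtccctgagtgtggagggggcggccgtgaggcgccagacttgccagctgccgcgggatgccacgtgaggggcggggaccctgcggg
Uncx: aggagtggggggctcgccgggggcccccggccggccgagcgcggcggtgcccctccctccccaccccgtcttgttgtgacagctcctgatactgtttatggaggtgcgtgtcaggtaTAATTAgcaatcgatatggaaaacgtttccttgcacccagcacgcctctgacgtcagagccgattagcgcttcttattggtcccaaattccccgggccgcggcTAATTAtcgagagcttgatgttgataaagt
A match of letters is a description, not a binding site.

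Both genes of the rule were present in a large part of the cells. Emx2 (chr19:59458372-59465357, plus strand, protein coding, GENCODE M21) had UMIs in 78 of 94 control and 70 of 80 heterozygous Emx2/Fezf2 cells. Fezf2 (chr14:12342094-12348189, minus strand, protein coding) had UMIs in 56 and 41 of them. Cells with UMIs of both genes numbered 40 in the control and 31 in the heterozygous library, cells with Emx2 alone 38 and 39, and cells with Fezf2 alone 16 and 10. Cells with Emx2 alone were thus about as many as cells with both, and Fezf2 alone was the smallest class in both libraries. The rule bears on this order, since 1 UMI of each gene reaches the limit, while a cell with 1 gene alone needs 2 UMIs of it. Over all cells kept, both genes were in 40 control and 31 heterozygous cells. Emx2 alone was in 118 and 125 cells and Fezf2 alone in 75 and 41, so cells with both were the smallest class there.

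Across the whole series, an Emx2 UMI was more frequent in cells with Fezf2 than in cells without it. Most cells with Fezf2 still had no Emx2 UMI. Of 115 control cells with a Fezf2 UMI, 34.8% also had an Emx2 UMI, against 4.38% of the 2691 control cells without Fezf2. In the heterozygous library the shares were 43.1% of 72 cells and 5.25% of 2382 cells. A glia-like cluster was led by Ednrb, Apoe and Fabp7. It had an Emx2 UMI in 2 of 55 control cells (3.64%, median 1350 UMIs) and 3 of 56 heterozygous cells (5.36%, median 871 UMIs). Whether those UMIs were background or expression was not tested. The share of Emx2 in cells without Fezf2 lay within the counting intervals of the glia-like shares (0.443 to 12.5 and 1.12 to 14.9). Deeper cells are likelier to hold both genes, and the part of depth was not tested. The counts may include reads of Emx2os, which is antisense to Emx2, since no source used here says whether counting used strand. Emx2os had 26 UMIs of its own in the Emx2/Fezf2 cells. The same limit holds for any other named gene that overlaps a neighbour, Gabra5 among them.

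Many Emx2/Fezf2 cells passed the limit narrowly. The median sum of Emx2 and Fezf2 UMIs was 3 in both libraries, and the highest was 11 in the control and 14 in the heterozygous library. Cells with exactly 2 numbered 39 and 37, and their median depth was 1730 and 2288 UMIs. Cells with 3 or more numbered 55 and 43, at 3302 and 3862 UMIs. Just outside the limit stood 135 control and 115 heterozygous cells with a sum of 1. The limit on Nts removed 2 control cells and 1 heterozygous cell.

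Beside Emx2 and Fezf2, 6 genes had been given as markers of these cells, and their levels follow as UMIs per 1000000 UMIs, the level used from here on. These markers were given with earlier results of these data known, so their higher levels are a description and no independent check. Synpr encodes synaptoporin, a membrane protein of synaptic vesicles, and lies on chr14:13284780-13616340. Its level was 164 in control Emx2/Fezf2 cells and 303 in heterozygous ones, against 34.1 and 28.5 in all other cells. The log2 ratio was 2.29 in the control (interval 1.77 to 2.73) and 3.42 in the heterozygous library (interval 3.02 to 3.80), both taken with a pseudocount of 1 UMI. Nxph1, a secreted ligand of neurexins, stood at 114 and 123 in the Emx2/Fezf2 cells and at 28.4 and 20.4 in the others. Nkx2-4, a homeodomain factor related to Nkx2-1, stood at 146 and 150 against 35.2 and 42.6.

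Uncx had levels of 260 and 340 in the Emx2/Fezf2 cells against 99.1 and 113 in the others. Npy1r, the Y1 receptor of neuropeptide Y, had levels of 67.6 and 86.6 against 19.2 and 20.4. For both genes the Emx2/Fezf2 cells of each library lay above the other cells of either library. Ebf3, a transcription factor of the early B-cell factor family, had levels of 92.5 and 96.6 against 67.3 and 35.6. Its log2 ratio was 1.48 in the heterozygous library but 0.51 in the control, where the interval ran from -0.17 to 1.03.

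A gene was counted as higher or lower when it differed at least 2-fold in the same direction in both libraries and both counting intervals lay on that side of no difference. By this criterion 5 of the 6 markers were higher and Ebf3 was not. In thinned cells the control log2 ratios of Nxph1 (0.92) and Npy1r (0.98) fell short of 2-fold. The thinned log2 ratio was 3.01 for Synpr in the control and 3.22 for Npy1r in the heterozygous library. Without thinning, over all 14600 genes with at least 30 UMIs, 55 genes (0.377%) were higher and 65 genes (0.445%) lower in the Emx2/Fezf2 cells. When each gene's highest cell was left out, 31 genes were higher and 58 lower. The median log2 ratio over all genes was 0.16 in the control and 0.12 in the heterozygous library.

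**Figure D1:**
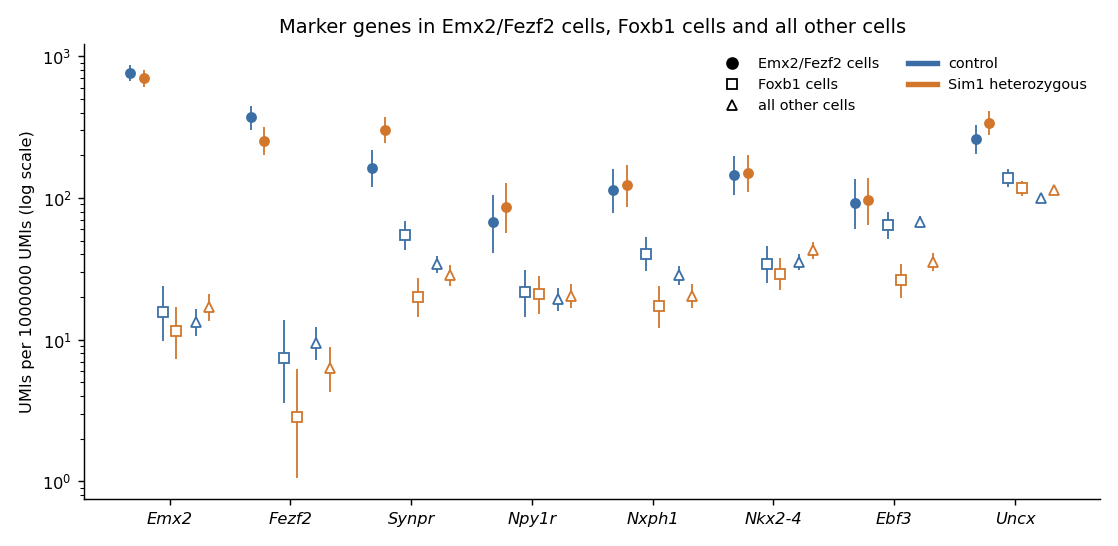
UMIs per 1000000 UMIs (log axis) of Emx2, Fezf2 and the 6 other markers in Emx2/Fezf2 cells (filled circles), Foxb1 cells (squares) and all other cells (triangles), control in blue and heterozygous in orange, with exact 95% counting intervals. Synpr stood at 164 and 303 in the Emx2/Fezf2 cells and at 34.1 and 28.5 in all other cells, while the Ebf3 intervals of the Emx2/Fezf2 cells and the other control cells overlapped.

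Shares of cells with a UMI were compared before and after thinning. Synpr had a UMI in 27.7% of control and 42.5% of heterozygous Emx2/Fezf2 cells, against 5.86% and 4.93% of the other cells and 1.82% and 1.79% of glia-like cells. At 857 UMIs per cell the Synpr shares were 17.0% and 17.1% in the Emx2/Fezf2 cells and 2.27% and 2.49% in the others. Thinning left out 156 control and 613 heterozygous cells, among them 4 heterozygous Emx2/Fezf2 cells. Nxph1, in 22.3% and 28.7% of the Emx2/Fezf2 cells before thinning, was in 4.26% and 3.95% after it, against 2.54% and 1.25% of the others. The thinned Nxph1 intervals, 1.17 to 10.5 in the control and 0.82 to 11.1 in the heterozygous library, included the shares of the other cells. Npy1r after thinning was in 3.19% of control Emx2/Fezf2 cells (interval 0.66 to 9.04), against 1.88% of the others, a share within that interval. In the heterozygous library it was in 10.5% (interval 4.66 to 19.7), against 1.30% of the others. Ebf3 was in 18 of 94 and 16 of 80 Emx2/Fezf2 cells before thinning, against 10.4% and 5.31% of the others. After thinning it was in 6.38% and 2.63%, against 4.93% and 2.72%. The thinned Ebf3 intervals, 2.38 to 13.4 and 0.32 to 9.18, included the shares of the other cells. The heterozygous share rested on 2 of 76 cells.

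Regulatory genes outside the marker list also stood apart. Bcl11b (chr12:107910403-108003602), a zinc finger factor known as a marker of cortical neurons that project below the cortex, had levels of 128 and 150 in the Emx2/Fezf2 cells against 21.1 and 16.5 in the others. Its log2 ratio was 2.63 in the control (interval 2.02 to 3.14) and 3.20 in the heterozygous library (interval 2.63 to 3.72). Pou3f3, a POU domain factor, had levels of 213 and 143 against 71.1 and 72.9. Pantr1, a long noncoding RNA of the Pou3f3 neighbourhood, had levels of 132 and 99.9 against 27.4 and 26.3. Pantr1 had a UMI in 27 of 94 and 20 of 80 Emx2/Fezf2 cells, but also in 9 of 55 and 12 of 56 glia-like cells. Zbtb20, a zinc finger repressor, had levels of 267 and 313 against 127 and 154, and its log2 ratio without its highest cell was 0.91 and 0.94.

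Crabp1 (chr9:54764748-54773110), which binds retinoic acid inside the cell, had levels of 92.5 and 107 against 14.2 and 8.64. Its UMIs were in 13 cells of each library. Inhba, which encodes the subunit of activin A, had 7 UMIs in 5 control cells and 12 UMIs in 6 heterozygous cells. Its levels of 24.9 and 40.0 compared with 0.641 and 3.54 in all other cells. Dkk2, a secreted modulator of Wnt signalling, had levels of 28.5 and 59.9 against 4.97 and 5.89. Wnt7a, a Wnt ligand, had levels of 46.2 and 79.9 against 14.7 and 15.1.

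Gabra5, the alpha 5 subunit of the GABA-A receptor, had levels of 530 and 646 against 216 and 216, and its log2 ratio was 1.31 and 1.58. Syt6 had levels of 139 and 76.6 against 29.9 and 25.5. Spock1, a testican proteoglycan, had levels of 349 and 360 against 121 and 137. Hs3st4, an enzyme that sulfates heparan chains, had levels of 149 and 143 against 51.7 and 49.9. Cdh4, also called R-cadherin, had levels of 285 and 286 against 122 and 120. Log2 ratios of the remaining ranked genes Fam204a, Stxbp6, Cpne4, Adgrf5 and Pex5l lay between 1.28 and 2.26.

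Galanin was the only neuropeptide gene of 18 tested in the list to be higher, where 0.377% of all genes were. Gal had levels of 256 and 236 in the Emx2/Fezf2 cells against 117 and 85.3 in the others, from 18 control and 21 heterozygous cells. Its control log2 ratio of 1.15 was 0.61 without its highest cell. It was -0.85 when Emx2/Fezf2 cells with 2 or more Foxb1 UMIs were left out, so the control value rested on cells with Foxb1. In the control, Gal stood at 498 in Emx2/Fezf2 cells with at least 2 Foxb1 UMIs and at 65.6 in those with none.

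**Figure D2:**
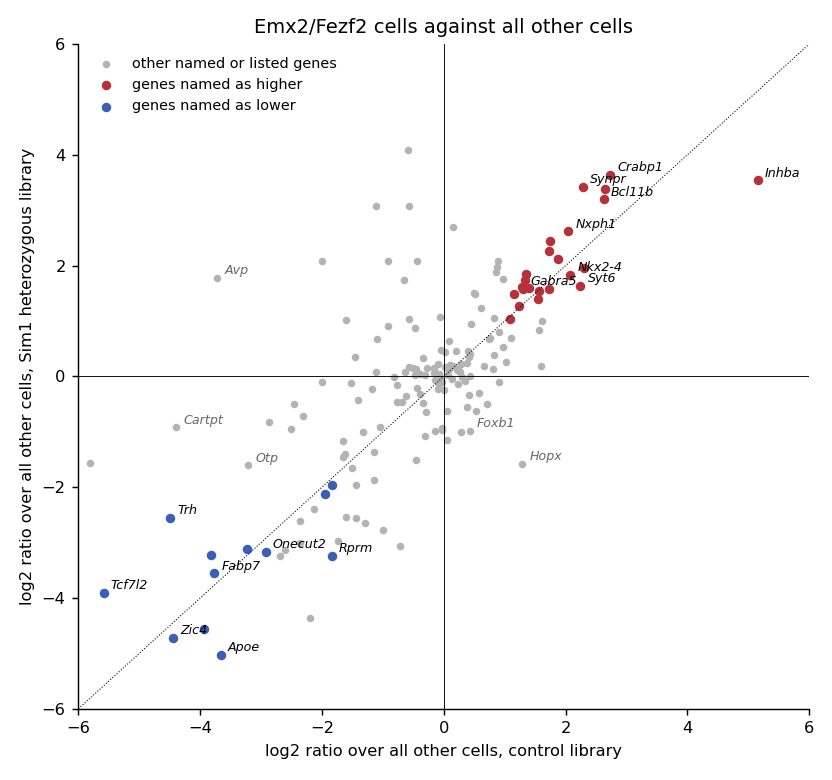
Log2 ratio of the level in Emx2/Fezf2 cells over all other cells, control library on the horizontal axis and heterozygous library on the vertical axis, for the named and listed genes, with the dotted line where both libraries give the same ratio. The genes named as higher (red) and those named as lower (blue) lie on the same side of 0 in both libraries by the way they were ranked, while Avp, Hopx and Foxb1 lie on opposite sides.

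In the other direction, 12 genes were named as lower in the Emx2/Fezf2 cells. Crh, the corticotropin-releasing hormone gene, had 0 UMIs in the Emx2/Fezf2 cells of both libraries, against levels of 54.3 and 78.2 in the others. At a floor of 3 UMIs per library this is at least 5.09-fold and 7.83-fold lower. Tcf7l2, a Wnt effector and thalamic marker, had 0 UMIs too and was at least 16.0-fold and 4.97-fold lower. Trh, the thyrotropin-releasing hormone gene, had 0 and 2 UMIs, for levels of 0 and 6.66 against 79.8 and 58.3. Zic4 and Zic1, zinc finger factors of the Zic family, had between 0 and 2 UMIs per library, against levels of 155 and 87.2 (Zic4) and 151 and 92.9 (Zic1).

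Otp, a homeodomain factor needed for neuroendocrine neurons, had levels of 35.6 and 73.3 against 363 and 233. Its log2 ratio was -3.22 in the control (interval -4.42 to -2.47) and -1.61 in the heterozygous library (interval -2.35 to -1.06). Sim1 had levels of 114 in control and 89.9 in heterozygous Emx2/Fezf2 cells, against 112 and 91.7 in the other cells, and both intervals of its log2 ratio included 0 (-0.54 to 0.53 and -0.65 to 0.53). The heterozygous over control log2 ratio of Sim1 within the Emx2/Fezf2 cells was -0.33 with an interval from -1.14 to 0.44, and it was -0.29 in the other cells. The labels do not say which part of Sim1 the heterozygous allele lacks, and UMIs from the 3′ end may not check the genotype.

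Rprm, the Reprimo gene, was the one of these 12 genes with most UMIs in the Emx2/Fezf2 cells, at 153 and 103 against 561 and 1009. Onecut2, a cut homeodomain factor, had levels of 10.7 and 6.66 against 108 and 89.8. Sall3 (0 and 1 UMIs), Pou2f2 (35.6 and 43.3 against 152 and 202) and the synaptic organiser gene Cbln2 (53.4 and 59.9 against 203 and 247) were also lower. The astrocyte genes Fabp7 and Apoe had 1 to 3 UMIs per library in the Emx2/Fezf2 cells.

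Lists of neuronal and transmitter genes were counted next. The lists were chosen with results of these data known, so their counts are descriptions. The shares over all genes were 0.377% higher and 0.445% lower. Of 12 pan-neuronal genes, 0 were higher and 1 lower (Nefm, a neurofilament gene), with a median log2 ratio of -0.05 beside 0.14 over all genes. Stmn2, a neuronal tubulin regulator, was in all 94 and all 80 cells. Slc17a6, which encodes the vesicular glutamate transporter VGLUT2, was in 68 and 63 cells, at 704 and 849 against 602 and 779 in the others. Slc32a1, the vesicular GABA transporter gene, had 0 UMIs in both libraries, which allows a UMI in up to 3.19% of control and 3.75% of heterozygous cells and limits cells with a UMI, not cells expressing the gene. Gad2, a GABA-synthesising enzyme gene, had 2 UMIs in 2 control cells and 18 UMIs in 5 heterozygous cells.

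Lists of hypothalamic regions followed. Of 11 paraventricular factors, 1 was higher (Pou3f3) and 3 were lower (Otp, Onecut2 and Zfhx4), with a median of -0.29. Of 5 paraventricular hormone genes, 0 were higher and 2 were lower (Crh and Trh). Of 8 mammillary genes tested, 0 were higher and 1 was lower (Rprm), with medians of 0.28 in the control and -0.66 in the heterozygous library. Irx3 and Irx5, the Iroquois genes named in the study's title, had 0 UMIs in the Emx2/Fezf2 cells of both libraries.

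Lists of receptors, channels, synaptic vesicle and axon guidance genes were counted beside the shares over all genes, 0.377% higher and 0.445% lower. In lists this short, a count of 0 lies near those shares and is no result about the list. Of 21 tested neuropeptide and hormone receptor genes, 1 was higher (Npy1r) and 0 were lower, with a median of 0.39. Of 27 glutamate and GABA receptor genes, 1 was higher (Gabra5) and 1 lower (Grin3a). Of 22 potassium channel genes and 21 sodium, calcium and HCN channel genes, 0 passed in either direction. Of 24 synaptic vesicle genes, 2 were higher (Synpr and Syt6). Of 36 axon guidance genes, 1 was higher (Sema3a, with 7 and 15 UMIs in 5 and 9 cells) and 1 lower (Nrp2).

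Markers of other cell types were counted too. All 4 microglial and all 3 endothelial markers had 0 UMIs in the Emx2/Fezf2 cells. The summed level of 8 astrocyte or radial glia genes was 245 and 330, and Aldh1l1, Gfap and Hes5 were at 0. The same sum was 374 and 473 in the other cells, which hold the 55 and 56 glia-like cells, and 201 and 203 in the Foxb1 cells. The pituitary list summed to 231 in the control and 3.33 in the heterozygous library, nearly all of it Gh, the growth hormone gene. Gh had 63 UMIs in 45 control Emx2/Fezf2 cells and 0 in the heterozygous ones, and other cells stood at 343 and 0, so the difference was between the libraries as a whole. Genes made in bulk by a few hypothalamic cells also reached the set: 2 cells of each library had at least 20 UMIs of Avp, Oxt or Pmch. Whether these are doublets was not tested.

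**Figure D3:**
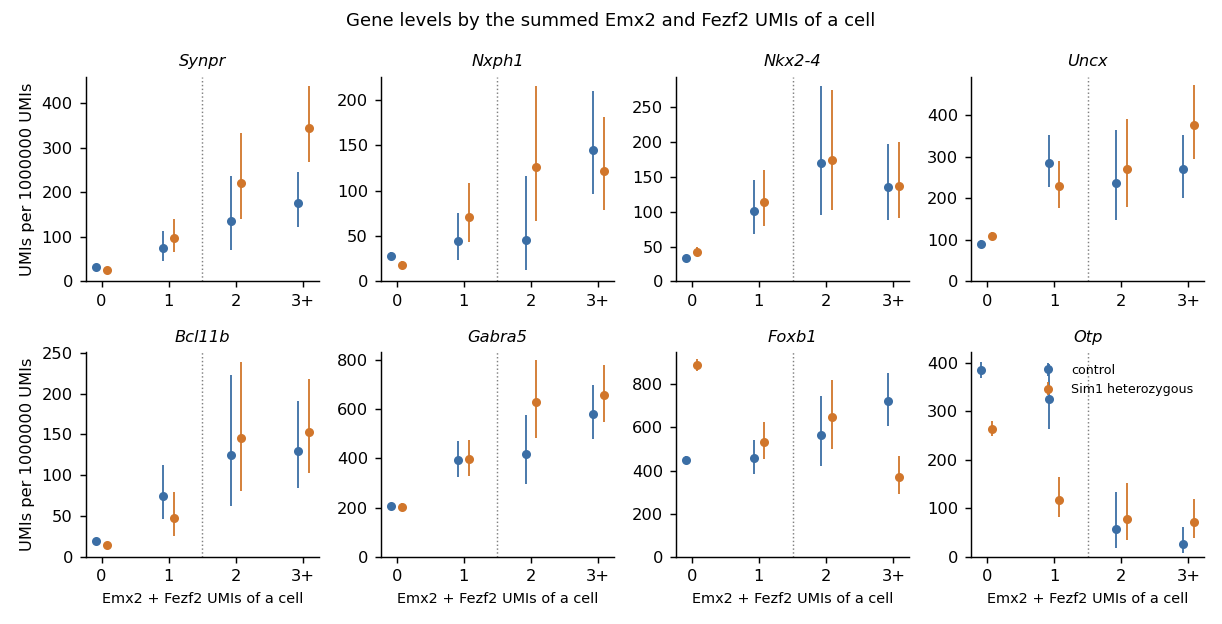
UMIs per 1000000 UMIs of 8 genes in cells with a summed Emx2 and Fezf2 count of 0, 1, 2 or at least 3 (under 2 Nts UMIs), control in blue and heterozygous in orange, with exact 95% counting intervals, and the limit of the rule as a dotted line. Synpr went from 32.2 to 176 in the control and from 25.7 to 346 in the heterozygous library, while Otp went from 385 to 25.9 and from 263 to 71.2.

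Cells just under the limit were intermediate for several genes. Synpr in the control had levels of 32.2 at a sum of 0, 74.5 at 1, 136 at 2 and 176 at 3 or more. In the heterozygous library the Synpr levels were 25.7, 97.4, 222 and 346. Bcl11b followed the same order in both libraries, with 19.2, 74.5, 125 and 130 in the control and 13.9, 47.0, 145 and 152 in the heterozygous library. Uncx did not, since cells with a sum of 1 already stood at 284 in the control, beside 238 at a sum of 2 and 270 at 3 or more. Crabp1 had 84 control and 34 heterozygous UMIs at a sum of 0, for levels of 14.96 and 8.01. It stood at 3.39 and 6.72 at a sum of 1, at 34.0 and 0 at a sum of 2, and at 119 and 163 at 3 or more. Otp in control cells was 325 at a sum of 1 and 56.7 at a sum of 2. The cells with sums of 3 or more were also the deepest, and the part of depth in these orders was not tested.

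Foxb1 overlapped with the Emx2/Fezf2 cells in part. It had at least 2 UMIs in 37 control cells (39.4%) and 29 heterozygous cells (36.2%), and 0 UMIs in 44 and 37 cells. Foxb1 stood at 672 in control and 466 in heterozygous Emx2/Fezf2 cells, against 503 and 925 in all other cells. The log2 ratio was therefore 0.43 in the control (interval 0.20 to 0.63) and -0.98 in the heterozygous library (interval -1.24 to -0.75). The heterozygous over control log2 ratio of Foxb1 was 0.88 among the other cells and -0.53 among the Emx2/Fezf2 cells. The difference between these ratios was not tested. Reads of the antisense gene B230323A14Rik, which had 43 UMIs here, could not be told apart from Foxb1 without strand.

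A second comparison set the Emx2/Fezf2 cells against 1466 other cells with at least 2 Foxb1 UMIs, 621 in the control and 845 in the heterozygous library. Over 11017 genes, 104 (0.944%) were higher and 108 (0.98%) lower by the same criterion, and 56 and 93 without each gene's highest cell. The median log2 ratio over all genes was 0.08 in the control and 0.04 in the heterozygous library. Crabp1, Bcl11b, Nkx2-4, Pantr1, Hs3st4, Cpne4 and Pex5l ranked as higher against the Foxb1 cells as they did against all cells. Crabp1 stood at 4.48 and 6.69 in the Foxb1 cells, for log2 ratios whose intervals ran from 3.06 to 5.94 and from 3.05 to 5.01. Bcl11b stood at 21.6 and 11.9 in the Foxb1 cells, for log2 ratios of 2.56 and 3.62.

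Further genes were higher against the Foxb1 cells. Pde1a, a calcium-dependent phosphodiesterase gene, had levels of 60.5 and 110 against 5.22 and 8.12. Id4, an inhibitor of bHLH factors, had levels of 103 and 170 against 23.9 and 27.7. Nwd2 had levels of 114 and 173 against 20.9 and 22.9. Epha5, an ephrin receptor gene, had levels of 245 and 280 against 119 and 82.2, while against all other cells (309 and 276) its log2 ratios were -0.31 and 0.03. The hormone genes Oxt and Sst also ranked as higher but rested on few cells. Oxt had 127 control UMIs, 123 of them in 1 cell, and 52 heterozygous UMIs, 51 of them in 1 cell, and its control log2 ratio of 3.58 was -1.10 without the highest cell. Sst had 14 UMIs in 4 control cells and 36 UMIs in 2 heterozygous cells, and its heterozygous log2 ratio of 4.31 was 0.10 without the highest cell.

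Several genes of the Foxb1 cells were scarce in the Emx2/Fezf2 cells. Rprm stood at 1553 and 1873 in the Foxb1 cells, for log2 ratios of -3.31 (interval -3.81 to -2.91) and -4.14 (interval -4.74 to -3.67). Sox5, a SOX family factor, had 1 UMI in the Emx2/Fezf2 cells of each library against levels of 70.1 and 76.4. Nrp2, a semaphorin receptor gene, had levels of 67.6 and 63.3 against 368 and 567. Zfhx4, a zinc finger homeodomain factor, had levels of 60.5 and 33.3 against 299 and 341. Npy, the neuropeptide Y gene, had 2 and 0 UMIs against levels of 84.3 and 100. Lhx1, a LIM homeodomain factor of the mammillary region, was present in 43 and 44 Emx2/Fezf2 cells but lower than in the Foxb1 cells, at 349 and 390 against 763 and 886. Slc17a6 had log2 ratios of 0.02 in both libraries, with intervals from -0.21 to 0.24 and from -0.18 to 0.20.

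Emx2/Fezf2 cells gathered in 1 cluster more than in any other, though not all of them. Cells of both libraries were clustered on variable genes without Emx2, its antisense Emx2os, Fezf2 and Nts. A cluster of 398 cells led by Dkk2, Synpr, Aldh1a1, Smoc2 and Npy1r held 98 of the 174 cells (56.3%, interval 48.6 to 63.8). The Emx2/Fezf2 cells made up 24.6% of that cluster, and 45.0% of its cells had an Emx2 or Fezf2 UMI. A cluster led by Pou3f1 and Nrgn held 30 of the cells (17.2%), a cluster led by Tph1 and Tulp1 held 18 (10.3%), and a cluster led by Neurod6 and Nfib held 9 (5.17%). The glia-like cluster held 0. At another resolution or random seed the leading cluster's share was between 62.6% and 74.1%, so the share has no fixed value. The leading cluster was also larger there, with 1125 cells at resolution 0.5, 438 at resolution 2 and 738 with another seed.

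**Figure D4:**
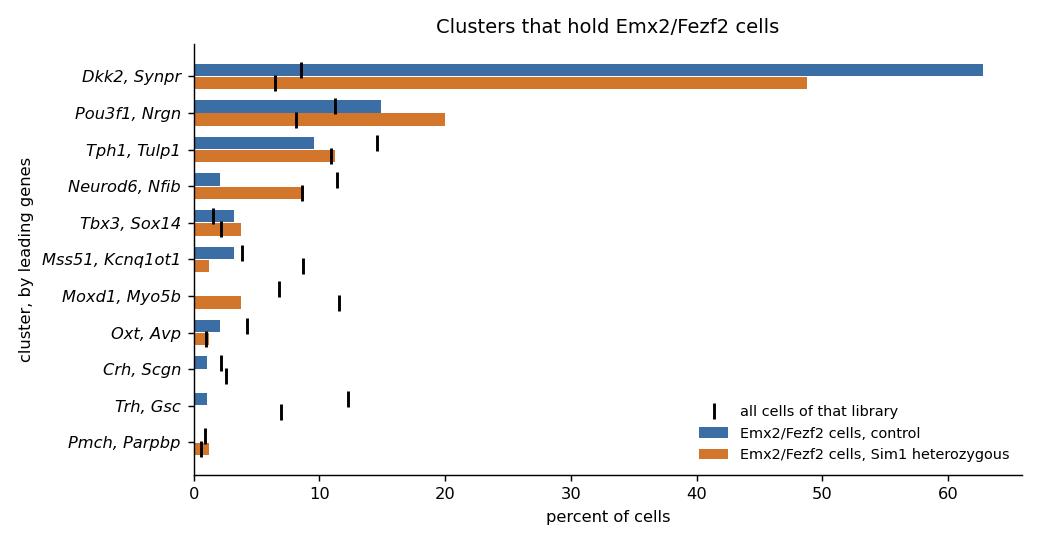
Percent of Emx2/Fezf2 cells in each cluster that holds any of them, control in blue and heterozygous in orange, with black marks for the percent of all cells of that library in the cluster. The cluster led by Dkk2 and Synpr held 62.8% of control and 48.8% of heterozygous Emx2/Fezf2 cells, against 8.55% and 6.44% of all cells.

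Emx2/Fezf2 cells inside and outside the leading cluster differed in several genes, some of which helped to build the cluster. Synpr stood at 220 inside and 53.0 outside in the control, and at 386 and 201 in the heterozygous library. Nxph1 did not repeat its order, with 96.4 inside and 148 outside in the control but 199 and 29.8 in the heterozygous library. Foxb1 stood at 921 inside and 180 outside in the control, and at 687 and 194 in the heterozygous library. Rprm went the other way, with 58.9 inside and 339 outside in the control, and 24.1 and 201 in the heterozygous library. Median depth was higher inside, at 2885 and 4014 UMIs against 2033 and 2224, and its part was not tested.

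The cells with Fezf2 but no Emx2, 16 control and 10 heterozygous, were compared with the cells that had Emx2 alone. Synpr had 0 control UMIs and 1 heterozygous UMI in them, against levels of 198 and 205 in cells with Emx2 alone. Crabp1 had 0 UMIs in them in both libraries, against 12 and 5 UMIs in cells with Emx2 alone. The cells with Emx2 alone were more, at 38 and 39, and deeper, at medians of 2908 and 2632 UMIs. The raw Crabp1 counts do not allow for this. Uncx stood at 49.7 and 130 in the cells with Fezf2 but no Emx2, against 305 and 396 in cells with Emx2 alone. Avp, the vasopressin gene, had 103 of the 121 control UMIs and 1329 of the 1337 heterozygous UMIs in these cells, of which 98 and 1327 lay in 1 cell of each library. Their median depth was 1892 and 2425 UMIs.

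Crabp1 was spread unevenly over the Foxb1 classes in the control. In the control, Crabp1 stood at 164 in Emx2/Fezf2 cells without Foxb1 and at 31.6 in those with at least 2 Foxb1 UMIs. In the heterozygous library the levels were 104 and 120, and the difference between the libraries was not tested. Synpr stood at 156 and 182 in the same control classes, and at 255 and 411 in the heterozygous ones.

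Genotypes were compared within the Emx2/Fezf2 cells, by a criterion of at least 1.5-fold with the counting interval on that side. Over 4039 genes, 230 (5.69%) were higher and 165 (4.09%) lower in the heterozygous cells, with a median log2 ratio of 0.03. Without each gene's highest cell these counts were 107 and 87. Of the 8 markers, Emx2 and Fezf2 included, Synpr alone passed. Its 46 UMIs in 26 control cells and 91 UMIs in 34 heterozygous cells gave a log2 ratio of 0.87 (interval 0.36 to 1.43), where the other cells had -0.26. These cell counts do not allow for depth, with medians of 2529 control and 3183 heterozygous UMIs. In thinned cells Synpr was in 16 of 94 control (17.0%) and 13 of 76 heterozygous (17.1%) Emx2/Fezf2 cells, so these shares showed no difference. The log2 ratios of Nkx2-4 (0.04), Ebf3 (0.06), Nxph1 (0.11), Npy1r (0.34) and Uncx (0.38) had intervals that included 0. Of the 2 genes that chose the cells, Emx2 had a log2 ratio of -0.12 (interval -0.40 to 0.16) and Fezf2 one of -0.54 (interval -0.99 to -0.11), short of 1.5-fold.

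Some of the differences ran through the whole libraries. Hspa8, a heat shock cognate chaperone gene with near-identical pseudogenes, had 7 UMIs in the control and 98 in the heterozygous cells, for a log2 ratio of 3.53 (interval 2.62 to 5.06), and the ratio in all other cells was 4.00. Cwc22, a splicing factor gene, went from 110 to 320, for a log2 ratio with an interval from 0.94 to 2.17, beside 1.86 in the other cells. Gh was at least 22.4-fold lower, since the heterozygous cells had 0 UMIs. Cd24a, a cell surface glycoprotein gene, stood at 295 and 107, for a log2 ratio of -1.44 beside -1.01. For these 4 genes the Emx2/Fezf2 cells and the other cells moved in the same direction.

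Other differences were smaller in the remaining cells or had the opposite sign there. Cck, the cholecystokinin gene, had 372 UMIs in 58 control cells and 210 UMIs in 38 heterozygous cells. Its level was 1323 and 699, for a log2 ratio of -0.92 (interval -1.17 to -0.67), while other cells had 0.48. Its log2 ratio was -0.65 without the highest cell, which held 64 control UMIs. The Cck ratio was -0.57 without the 5% deepest cells and -0.49 at a sum of at least 1, both short of 1.5-fold. It was -0.61 in thinned cells and -1.18 at a sum of at least 3. Tmem127 stood at 28.5 and 147, for a log2 ratio of 2.23 beside 0.81. Ahsa2, which overlaps Usp34 and so may share its reads, stood at 28.5 and 120, for a log2 ratio of 1.94 beside 0.12. The differences between these ratios and those of the other cells were not tested.

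Cdkn1c, a cyclin-dependent kinase inhibitor gene, had 46 UMIs in 25 control cells and 14 UMIs in 12 heterozygous cells, for a log2 ratio of -1.74 (interval -2.79 to -0.92). Ezh2, the methyltransferase of Polycomb complexes, stood at 117 and 36.6, for a log2 ratio of -1.60 beside -0.71 in the other cells. Ing1, a reader of histone marks, had 39 and 15 UMIs, for -1.42 beside -0.26. Paxbp1 stood at 210 and 93.3, for -1.14 beside 0.06. Ruvbl1, an ATPase of chromatin remodellers, was on the other side, at 21.3 and 93.3, for 1.96 beside 0.35. Spock3 went from 128 to 313 and Cyhr1, which overlaps Kifc2, from 35.6 to 117.

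Several genes that passed had most of their UMIs in 1 cell. Avp had 121 control UMIs, 98 of them in 1 cell, and 1337 heterozygous UMIs, 1327 of them in 1 cell. Its log2 ratio of 3.36 was -3.57 without the highest cell. Pmch, which shares its locus with the overlapping gene Parpbp, had 6 control and 39 heterozygous UMIs, 37 of the latter in 1 cell, and its log2 ratio of 2.42 was -1.32 without that cell. Oxt had 127 control UMIs, 123 of them in 1 cell, and 52 heterozygous UMIs, 51 of them in 1 cell. Its log2 ratio of -1.37 was 3.31 without the highest control cell, a value that rests on the 1 heterozygous cell. Sst, the somatostatin gene, had 14 control and 36 heterozygous UMIs, 35 of the latter in 1 cell, for a log2 ratio of 1.21. Cartpt, the CART peptide gene, had 1 control UMI and 36 heterozygous UMIs, 23 of them in 1 cell, and its log2 ratio of 4.11 was 2.71 without that cell. Hopx had 25 control UMIs, 13 of them in 1 cell, and 7 heterozygous UMIs, for a log2 ratio of -1.80 beside 1.07 in the other cells. Without the highest cell the Hopx ratio was -0.80.

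**Figure D5:**
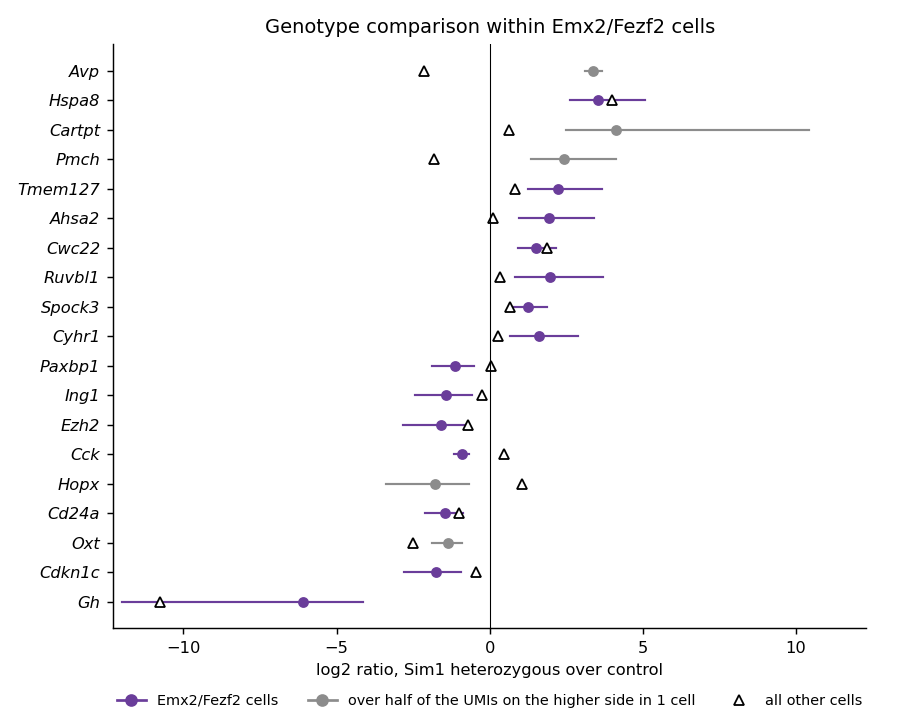
Log2 ratio of heterozygous over control levels within Emx2/Fezf2 cells for the genes named as higher or lower (circles, with exact 95% counting intervals, no lower limit for Gh), and the same ratio in all other cells (triangles). Grey marks Avp, Cartpt, Pmch, Oxt and Hopx, for which 1 cell held over 50% of the UMIs on the higher side.

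Listed genes were counted by the same genotype criterion, beside shares over all genes of 5.69% higher and 4.09% lower. Of 17 synaptic vesicle genes tested, 5 were higher (Synpr, Syp, Syn1, Rims1 and Pclo) and 1 was lower (Syt6), with a median of 0.14. Among stress and activity genes, Hspa8, Hspa5, Jun and Jund were higher, 4 of the 5 tested. The summed level of this list was 1999 and 2851 in the Emx2/Fezf2 cells and 2101 and 2884 in the other cells, so it differed between the libraries as a whole. Of 12 pan-neuronal genes, 0 passed in either direction, with a median of -0.18. Of 6 paraventricular factors tested, 1 was higher (Peg3), and Otp, with 10 control and 22 heterozygous UMIs, had a log2 ratio of 0.97 and an interval from -0.10 to 2.28. The 85 ribosomal protein genes tested had a median of -0.35.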

How the data were processed

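The tables the authors deposited hold UMI counts per gene and cell barcode, 1 for each library and 1 merged table with identical values, for 5283 barcodes and 24905 genes. Per the submitters' processing notes, bcl2fastq, Picard, STAR 2.6.0b and Seurat 3 were used with mouse build mm10. No source used here gives the counter, its annotation, its use of strand or a filter on doublets. No other columns of values were present. Libraries held 6525080 and 5397693 UMIs.

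UMIs were summed over the cells of a group and library and scaled to 1000000 UMIs. Groups were compared by log2 ratios with a pseudocount of 1 UMI, over genes with at least 30 UMIs in the cells compared, with 95% intervals that were exact Poisson for levels, exact binomial given the summed count for ratios, and Clopper-Pearson for shares. A count of 0 was bounded by 3 UMIs or 3 cells per library. No test was run, since each genotype is 1 library. Pups of a pool cannot be told apart, so the spread between animals is unknown.

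Named genes were the 8 markers, the 24 higher and 12 lower than all other cells, the 12 higher and 12 lower than Foxb1 cells, and the 10 higher and 10 lower between genotypes, ranked by the interval bound nearest 0, and up to 5 genes of each of 37 lists, by UMIs or interval. Clone-named, ribosomal, mitochondrial, sex-linked and haemoglobin genes and pseudogenes were left out of the rankings, and some genes that the rule names are not reported here. The cells and lists were chosen with earlier results of these data known. Clusters came from 2000 variable genes, 30 principal components, 20 neighbours and the Leiden method at resolution 1 (scanpy 1.11.5, igraph 0.11.9), and were named by leading genes. Python 3.11.15, numpy 2.4.6, scipy 1.17.1 and pandas 2.3.3 were used, and the scripts were tested on simulated data. Alternatives were other limits on summed UMIs, genes, Nts and low counts, other pseudocounts and scalings, thinned cells, and leaving out the deepest cells. Leaving out each gene's highest cell, cells with Foxb1 and hormone-rich cells was chosen after seeing the data. Gene positions came from GENCODE M21, which held 94.3% of the symbols.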

Additional observations from a re-analysis of the deposited data

Results flagged for a closer look

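Some genes differed between Emx2/Fezf2 cells and all other cells in opposite directions in the 2 libraries, with both counting intervals clear of 0. The differences between the libraries were not tested. Foxb1, the mammillary marker, had a log2 ratio over the other cells of 0.43 in the control and -0.98 in the heterozygous library. Lhx1, a LIM homeodomain factor, had 0.41 and -0.33. Ahsa2 had -0.92 and 0.91, and Paxbp1 had 0.70 and -0.50. Avp, the vasopressin gene, had -3.72 and 1.78, with 1327 of its 1337 heterozygous UMIs in 1 cell. Hopx had 1.29 and -1.57, with 13 of its 25 control UMIs in 1 cell.

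Against the Foxb1 cells, also untested, the log2 ratios in the control and heterozygous libraries were -1.19 and 0.69 for Ahsa2 and 0.48 and -0.55 for Paxbp1. They were -0.60 and 6.70 for Avp, and -1.78 and 2.57 for Pmch, which had 37 of its 39 heterozygous UMIs in 1 cell.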

How the results depend on the processing

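No paired analysis was possible because each genotype is 1 library and the labels give no replicate numbers, and for the same reason the results have no value without a library. Of 2052 recomputed ratios of named genes, 1948 stayed within their counting error, 89 moved beyond it and 15 changed sign. The 1948 include 140 ratios at 10 UMIs per gene and 140 at 100. Those ratios could not change, since these limits only set which genes are counted. The cause of each change was not tested.

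Counts of genes against all other cells (55 higher, 65 lower) became 39 lower at a pseudocount of 3, 22 higher and 25 lower in thinned cells, and 31 higher without the highest cell. Against Foxb1 cells (104 higher, 108 lower) they became 62 higher at 100 UMIs per gene, 42 higher and 39 lower in thinned cells, and 56 higher without the highest cell. Between genotypes (230 higher, 165 lower) they became 354 and 302 at 10 UMIs per gene, 67 and 37 at 100, 43 and 40 in thinned cells, 151 and 107 at a sum of at least 3, 301 lower at a sum of at least 1, and 107 and 87 without the highest cell. Thinned cells hold fewer UMIs, so fewer genes can pass.

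The share of cells was 1.96% (control) and 1.75% (heterozygous) at a sum of at least 3, 8.16% and 7.95% at a sum of at least 1, and 1.40% and 1.14% in thinned cells. The leading cluster's share was 67.2% at resolution 0.5, in a cluster of 1125 cells, and 74.1% with another seed, in a cluster of 738 cells.

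Signs changed at a sum of at least 3 for Oxt against Foxb1 cells in the control (-1.26) and, between genotypes, for Pmch (-1.35) and Oxt (4.11). At a sum of at least 1 they changed for Fabp7 (0.066) and Apoe (0.29) in the control and Crh (1.57) in the heterozygous library against all other cells, and for Avp between genotypes (-1.90). Avp between genotypes was -3.83 without the 5% deepest cells, -3.57 without the highest cell and -1.18 without hormone-rich cells. Pmch between genotypes was -1.32 and -1.28 under the last 2 of these. Without the highest cell Oxt was -1.10 against Foxb1 cells in the control and 3.31 between genotypes. Gal in the control was -0.85 against all other cells when cells with at least 2 Foxb1 UMIs were left out.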
